A study of Mus musculus with 6 samples.

Results

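The glutathione S-transferase mu cluster is a row of related genes on mouse chromosome 3 that encode detoxifying enzymes. Its members here were the 6 genes Gstm1, Gstm2, Gstm4, Gstm5, Gstm6 and Gstm7, chosen by symbol, out of 24346 gene symbols in each file. Expression is given in FPKM, fragments scaled to transcript length and to the size of the library. All 6 members averaged 1 FPKM or more across the libraries and so passed the low-value filter, as did 14766 symbols in all. A further mu class gene of the same cluster, Gstm3, is described beside them and did not pass. Mutant values were compared with control values. Because the genes were proposed with mutant and control values of these libraries already known, the differences of the 6 members are given as a description and without a test.

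The samples were nasomaxillary complexes, the tissue of the nose and upper jaw, taken from mouse embryos at E17.5. The 3 mutant libraries carried Wnt1-Cre and floxed Pth1r (Wnt1-Cre:Pth1r f/f), and the 3 control libraries carried floxed Pth1r without Cre (Pth1r f/f). Neither group received a treatment. Pth1r is the receptor for parathyroid hormone and its related peptide, and Wnt1-Cre recombines floxed genes in the neural crest and its descendants, so skin epithelium, muscle fibres, blood and endothelium keep an intact gene. Since controls had no Cre, an effect of the transgene and an effect of losing Pth1r cannot be told apart. The labels do not say whether each library came from a separate embryo, so each SD below measures the spread between these libraries. Each SE is from limma, which draws a gene's variance toward that of genes at a like level. Counting errors are estimated from fragment numbers alone.

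Glutathione transferases join the tripeptide glutathione to reactive, fat-soluble molecules, which makes them easier to export from the cell. The mu class enzymes work as dimers and are found in the cytosol. They are abundant in liver and in olfactory mucosa, where they take part in clearing inhaled chemicals. In many tissues genes of this kind respond to Nrf2 (Nfe2l2), a transcription factor activated by electrophiles.

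Total FPKM ran from 514777 to 525626 in mutant libraries and from 514693 to 546322 in control libraries. Low FPKM values were taken as whole numbers of single-fragment steps, and their spacing gave a relative depth for each library. It was 1.02, 0.903 and 0.671 for mutant replicates 1 to 3 and 1, 1.11 and 0.938 for control replicates 1 to 3. Xist and Ddx3y marked mutant replicates 2 and 3 as male and mutant replicate 1 and all 3 controls as female. Pth1r FPKM lay between 69.7 and 78.4 in mutant and between 55.2 and 75.2 in control libraries. The labels do not give the floxed part, so a value over the whole gene does not check the genotypes. All 8 olfactory neuron, all 8 osteoblast and all 8 chondrocyte markers listed averaged 1 FPKM or more, so defining markers of the labelled tissue were present.

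The cluster spans 149 kb of chromosome 3 (GRCm38, the same coordinates as mm10), from 107895821 to 108044894. Gstm5 lies at its left end, at 107895821 to 107898686 on the plus strand. The other genes are all on the minus strand, in the order Gstm7 (107926334 to 107931817), Gstm6 (107938847 to 107943749), Gstm3 (107963696 to 107969283), Gstm2 (107981702 to 107986453), Gstm1 (108012255 to 108017973) and Gstm4 (108040408 to 108044894). The start of an antisense transcript, 4933431E20Rik (107888850 to 107896213, minus strand), overlaps the start of Gstm5. The library kit was stranded, but the strand setting of the authors' counting is not given in the sources used here. FPKM of 4933431E20Rik was 5.52, 5.52 and 5.15 in mutant replicates 1 to 3 and 5.08, 5.06 and 5.06 in control replicates 1 to 3.

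The coding sequences show how alike these genes are, which bears on how their fragments could be assigned. The same stretch near the end of the coding sequence, 60 bases long and the one where the other 6 genes in sum differ most from Gstm1, is given 5′ to 3′ from GENCODE transcripts, with capitals at bases unlike Gstm1.
Gstm1: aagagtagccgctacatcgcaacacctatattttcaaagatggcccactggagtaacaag
Gstm2: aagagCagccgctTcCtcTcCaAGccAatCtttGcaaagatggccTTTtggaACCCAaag
Gstm3: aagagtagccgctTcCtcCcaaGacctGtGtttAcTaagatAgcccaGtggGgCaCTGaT
Gstm4: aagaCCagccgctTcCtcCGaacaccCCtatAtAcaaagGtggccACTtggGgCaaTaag
Gstm5: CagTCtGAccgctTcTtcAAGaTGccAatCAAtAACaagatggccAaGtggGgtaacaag
Gstm6: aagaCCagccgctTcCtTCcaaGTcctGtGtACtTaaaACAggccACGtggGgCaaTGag
Gstm7: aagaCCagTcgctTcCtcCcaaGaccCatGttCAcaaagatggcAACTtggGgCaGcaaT
In this stretch 16 bases of Gstm3, 17 of Gstm4, 18 of Gstm2, 19 of Gstm7, 22 of Gstm5 and 23 of Gstm6 were unlike Gstm1. Over the whole coding sequence Gstm1 and Gstm3 were the most alike, with 89.5% identical bases. Gstm1 and Gstm2 shared 86.0%. Gstm5 shared the least with the others, 69.9% to 73.8%. The coding sequences hold 232 codons in Gstm6, 224 in Gstm5 and 218 in each of the other 5 genes.

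**Figure D1:**
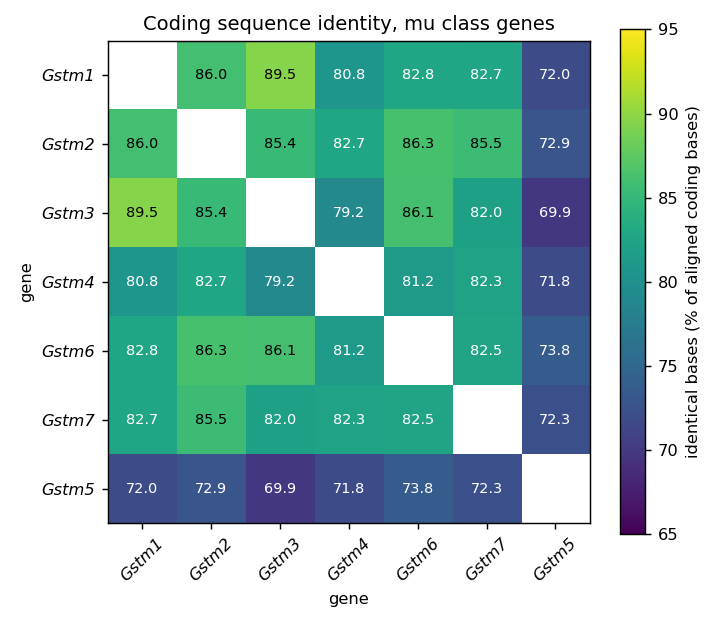
Percentage of identical bases between the coding sequences of the 7 mu class genes, from global alignment of their longest complete GENCODE coding transcripts. Gstm5 shares 69.9% to 73.8% with the others, while Gstm1 and Gstm3 share 89.5%.

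Fragments from near-identical stretches can be given to the wrong gene. Of all runs of 50 bases in the Gstm1 transcript, 23.2% also occurred in a transcript of another gene, namely Gstm2, Gstm3 or one of several pseudogenes. The share was highest for Gstm3, at 28.8%. It was 9.36% for Gstm2 and 11.5% for Gstm6, and 0 runs of Gstm4, Gstm5 or Gstm7 were shared. With runs of 100 bases it was 13.8% for Gstm3, 7.73% for Gstm1, 2.41% for Gstm6 and 0.622% for Gstm2. The read length and the handling of fragments with several matches have no statement in the sources used here, so the split among Gstm1, Gstm2, Gstm3 and Gstm6 is uncertain. A sum of FPKM over the cluster is less exposed to that split but not free of it, since transcript lengths differ and pseudogenes stand outside the sum.

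The members fell into a high and a low tier of FPKM, and 5 of the 6 had lower values in mutant libraries. Gstm1 was the most abundant, averaging 288 ± 61.2 FPKM in mutant and 452 ± 43.5 FPKM in control libraries (SD, n = 3 each). Gstm2 and Gstm5 came next, at 75.4 to 107.6 FPKM, and Gstm7, Gstm4 and Gstm6 lay between 4.72 and 13.4 FPKM in every library. In the 5 members other than Gstm5 every mutant value lay under every control value, a pattern found in this direction for 9.16% of all 14766 genes tested, in the higher direction for 7.85% and in either for 17%. A negative difference was found for 50.8% of all genes. Since the members were chosen with this contrast known, nothing is read from these shares. The median log2 difference, mutant minus control on the log2(FPKM + 1) scale, was -0.30 over the 6 members and -0.0020 over all genes tested. In bulk tissue, fewer cells that express these genes and less of their RNA per cell cannot be told apart.

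**Figure D2:**
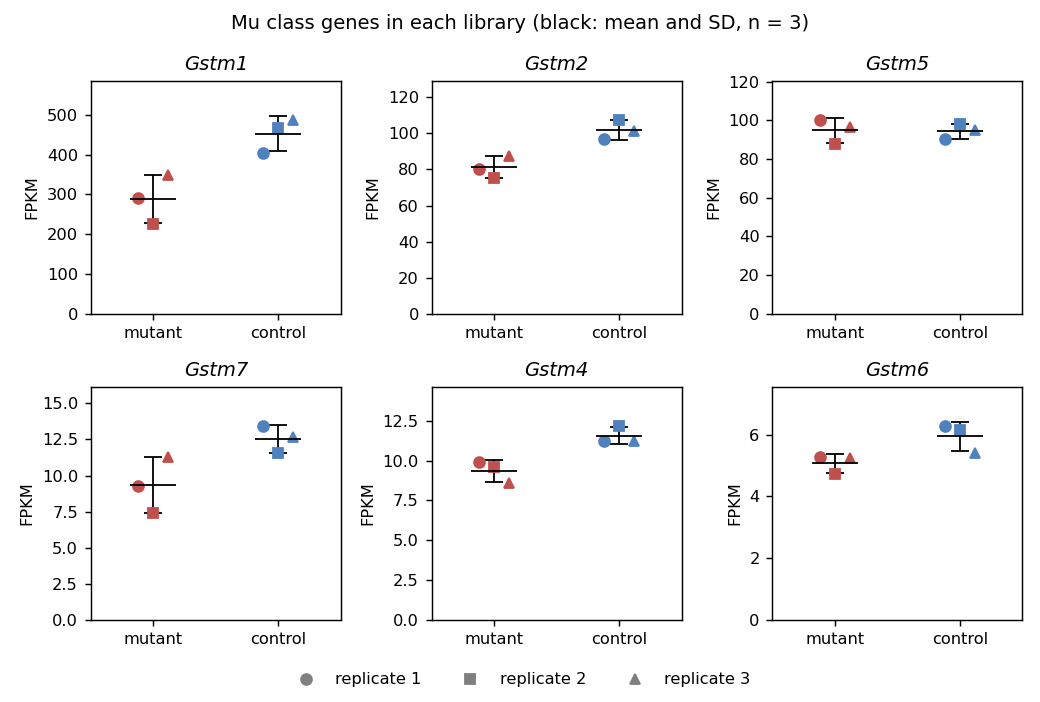
FPKM of the 6 members in each library, mutant to the left of control; symbols mark replicates and black bars the mean and SD (n = 3 each). For Gstm5 the mutant values, 87.8 to 100.4 FPKM, enclose the control values, 90.5 to 98.2 FPKM, and those of the other 5 genes do not overlap.

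Gstm1, the main mu class enzyme of mouse liver, measured 291, 226 and 348 FPKM in mutant replicates 1 to 3 and 404, 466 and 487 FPKM in control replicates 1 to 3. Its mutant mean was 0.638 times the control mean, the log2 difference being -0.67 ± 0.15 (SE). Mutant replicate 2 was the lowest and mutant replicate 3 the highest of its group. It ranked 170 to 270 by FPKM among all symbols in mutant libraries and 128 to 155 in control libraries. Its part of the summed FPKM of the 6 members was 55.0% to 62.5% in mutant and 64.9% to 68.4% in control libraries.

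Gstm2, whose human counterpart is known as the muscle form of the class, measured 80.5, 75.4 and 87.5 FPKM in mutant replicates 1 to 3, against 96.9, 107.6 and 101.3 FPKM in control replicates 1 to 3. Its log2 difference was -0.33 ± 0.068 (SE), with a mutant mean 0.796 times the control mean. As with Gstm1, mutant replicate 2 was the lowest and mutant replicate 3 the highest of the mutants. The ratio of Gstm1 to Gstm2 was 3.0 to 3.98 in mutant and 4.16 to 4.81 in control libraries, so the more abundant gene differed by the larger factor.

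Gstm5, known in mouse as the form of brain and testis, measured 100.4, 87.8 and 96.7 FPKM in mutant replicates 1 to 3 and 90.5, 98.2 and 94.9 FPKM in control replicates 1 to 3. The groups overlapped, and the log2 difference was 0.0050 ± 0.062 (SE). Leaving out each library in turn gave differences between -0.036 and 0.060 for Gstm5. Gstm5 also changed places with Gstm2. In all 3 mutant libraries Gstm5 had more FPKM than Gstm2, and in all 3 control libraries Gstm2 had more than Gstm5. The ratio of Gstm2 to Gstm5 was 0.855 ± 0.052 in mutant and 1.08 ± 0.015 in control libraries (SD, n = 3 each), a measure that does not depend on the scaling between libraries.

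The low tier held Gstm7, Gstm4 and Gstm6. Gstm7 measured 9.25, 7.40 and 11.3 FPKM in mutant replicates 1 to 3, against 13.4, 11.5 and 12.7 FPKM in control replicates 1 to 3. Its log2 difference was -0.41 ± 0.14 (SE), and the highest mutant value was close to the lowest control value. Without mutant replicate 2 it was -0.27.

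Gstm4 measured 9.89, 9.62 and 8.57 FPKM in mutant replicates 1 to 3 and 11.2, 12.2 and 11.3 FPKM in control replicates 1 to 3. Its log2 difference was -0.28 ± 0.070 (SE). Here mutant replicate 3, the shallowest library, was the lowest, unlike in the other 4 lower members. Gstm4 and Gstm7 had no fixed order. Gstm4 was above Gstm7 in mutant replicates 1 and 2 and in control replicate 2, and below it in the other 3 libraries.

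Gstm6 measured 5.27, 4.72 and 5.23 FPKM in mutant replicates 1 to 3, against 6.28, 6.13 and 5.42 FPKM in control replicates 1 to 3. It was the lowest member in every library, and its log2 difference of -0.19 ± 0.080 (SE) was the smallest of the 5. Fragment numbers were estimated from relative depth and transcript length, taking the smallest non-zero Gstm3 value, after allowing for depth, as 1 fragment. By this estimate Gstm6 rested on roughly 45 to 68 fragments per mutant library and 64 to 86 per control library. That puts the counting error of a single Gstm6 value at 10.8% to 15.0%, beside a mutant mean 0.854 times the control mean. The same estimate gave roughly 2828 to 4117 fragments for Gstm1 in mutant and 5591 to 7162 in control libraries, with counting errors of 1.18% to 1.88%.

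Gstm3, which in mouse liver is known as an Nrf2-responsive gene, was close to absent. It had 0.0695, 0.0786 and 0 FPKM in mutant replicates 1 to 3 and 0.0710, 0.192 and 0.0757 FPKM in control replicates 1 to 3. After allowing for relative depth, and with the smallest non-zero value taken as 1 fragment, these values stood for 1, 1 and 0 fragments in mutant replicates 1 to 3. In control replicates 1 to 3 they stood for 1, 3 and 1 fragments. No difference can be read at that depth.

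Summed over the 6 members, the cluster gave 496, 411 and 558 FPKM in mutant replicates 1 to 3 and 622, 702 and 713 FPKM in control replicates 1 to 3. The mutant mean of 488 ± 73.7 FPKM was 0.719 times the control mean of 679 ± 49.6 FPKM (SD, n = 3 each), and the groups did not overlap. Relative to Gstm5 in the same library, Gstm1 stood at 2.57 to 3.60 in mutant and 4.46 to 5.13 in control libraries. Gstm7 stood at 0.0843 to 0.117 times Gstm5 in mutant libraries and 0.117 to 0.148 times in control libraries, where the nearest values almost met. Gstm4 stood at 0.0887 to 0.110 times Gstm5 in mutant libraries and 0.119 to 0.124 times in control libraries.

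Some markers of other tissues differed between the libraries along with the members. The skeletal muscle list of 12 genes, all detected, summed to 949, 1774 and 724 FPKM in mutant replicates 1 to 3 and to 751, 479 and 624 FPKM in control replicates 1 to 3. Its highest library, mutant replicate 2, had the lowest Gstm1, Gstm2, Gstm5, Gstm6 and Gstm7, but not the lowest Gstm4. Among the controls its lowest library, control replicate 2, had the highest Gstm2, Gstm4 and Gstm5, the middle value of Gstm1 and Gstm6, and the lowest Gstm7. In mutant replicates 1 to 3 the chondrocyte sum was 422, 373 and 639 FPKM, in the same order as Gstm1. So was the respiratory epithelium sum, at 1794, 1650 and 1915 FPKM. In control replicates 1 to 3 these sums, 1474, 1304 and 1587 FPKM and 1629, 1803 and 1577 FPKM, followed another order than Gstm1. The adipocyte, endothelial and leukocyte sums and that of Schwann cells and melanocytes were, like muscle, highest in mutant replicate 2. Of the lists only muscle was fitted as a covariate. With the log2 summed muscle level as a covariate, the log2 difference of Gstm1 became -0.31 and that of Gstm2 -0.19. That of Gstm7 became -0.19 and that of Gstm6 -0.13. All 12 muscle genes had positive differences, so muscle level and genotype cannot be cleanly told apart in this fit. The part of muscle content in the member differences was not tested. Without the covariate, leaving out mutant replicate 2 gave -0.50 for Gstm1, -0.28 for Gstm2, -0.27 for Gstm7 and -0.15 for Gstm6. The muscle genes of smallest p were Tnni1, a slow troponin (58.7 ± 23.6 FPKM in mutant and 28.4 ± 2.98 FPKM in control libraries, SD, n = 3 each, limma adjusted p = 0.247), and Myod1, a myogenic factor (6.43 ± 3.02 FPKM in mutant and 2.43 ± 0.701 FPKM in control libraries, limma adjusted p = 0.265). None of the 12 was called, and the median difference was 0.79. Of the 12, 8 had an unadjusted limma p under 0.05, against 11.3% of all genes, and 6 were higher without overlap, against 7.85%. Under the same covariate Gstm4 was -0.31 and Gstm5 0.11, and the sum over the cluster moved to -0.23 from -0.48 on the log2 scale.

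**Figure D3:**
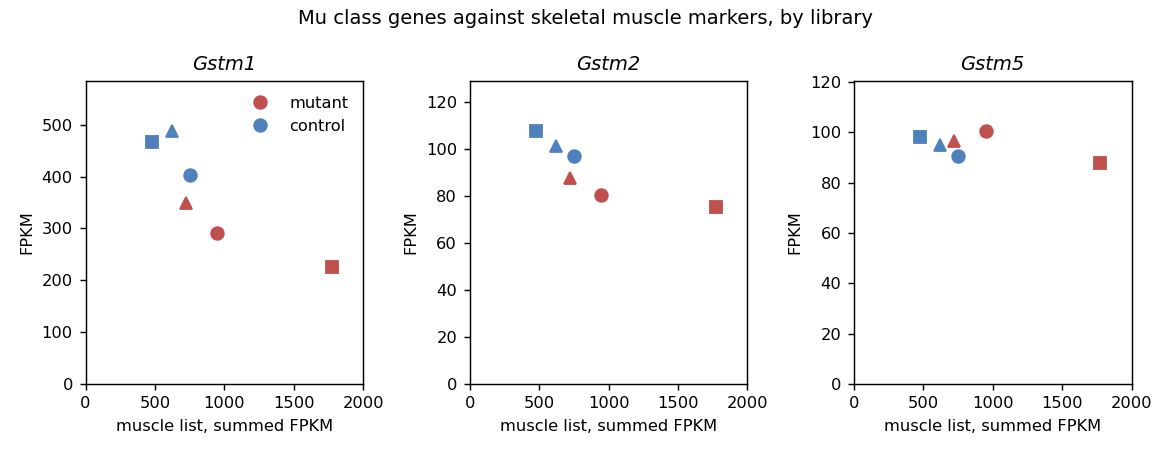
FPKM of Gstm1, Gstm2 and Gstm5 (vertical) against the summed FPKM of 12 skeletal muscle markers (horizontal) in each library; red marks mutant, blue control, and the symbol the replicate (circle 1, square 2, triangle 3). Mutant replicate 2 has the most muscle signal, 1774 FPKM, and the least Gstm1, 226 FPKM.

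The cartilage and skin lists also separated the groups. The 8 chondrocyte markers summed to 373 to 639 FPKM in mutant and 1304 to 1587 FPKM in control libraries, and 6 of them fell by limma at an adjusted p under 0.05, against 0.203% of all genes called lower. Matn1, a cartilage matrix protein gene, fell, with 10.5 ± 4.65 FPKM in mutant and 68.8 ± 4.46 FPKM in control libraries (SD, n = 3 each, limma adjusted p = 0.0121), and Acan, the aggrecan gene, fell as well (log2 difference -1.31 ± 0.15, limma adjusted p = 0.0266). The 10 skin and oral epithelium markers summed to 1913 to 2040 FPKM in mutant and 705 to 1692 FPKM in control libraries. By limma 0 were called, where 0.061% of all genes were called higher. Of the 10, 8 had an unadjusted limma p under 0.05, against 11.3% of all genes. Without overlap 9 were higher, against 7.85% of all genes. Krt15, a basal keratin gene, measured 219 ± 4.85 FPKM in mutant and 158 ± 21.4 FPKM in control libraries (SD, n = 3 each, limma adjusted p = 0.136). The part of cartilage and skin content in the member differences was not tested. The 10 sustentacular and Bowman gland markers, cells of olfactory mucosa rich in detoxifying enzymes, summed to 1436 to 1573 FPKM in mutant and 1271 to 1554 FPKM in control libraries, and none was called, with 0 at an unadjusted limma p under 0.05. With embryo sex as a covariate, which sets mutant replicate 1 against the 3 controls, Gstm1 stood at -0.63, Gstm2 at -0.34, Gstm7 at -0.40, Gstm4 at -0.20, Gstm6 at -0.15 and Gstm5 at 0.086.

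Other marker lists give the makeup of the dissection, and their part in the member differences was not tested. Of all genes tested, 7.85% were higher and 9.16% lower in mutant libraries without overlap. The 8 olfactory neuron markers summed to 440 to 446 FPKM in mutant and 382 to 455 FPKM in control libraries, and the 9 respiratory epithelium markers to 1650 to 1915 FPKM in mutant and 1577 to 1803 FPKM in control libraries. Osteoblast markers summed to 5235 to 6159 FPKM in mutant and 5829 to 8111 FPKM in control libraries, and only Bglap was lower without overlap. Connective tissue markers gave 3996 to 4320 FPKM in mutant and 4125 to 5067 FPKM in control libraries. Among them Dpt was higher and Col1a2 lower without overlap. Leukocyte markers summed to 241 to 264 FPKM in mutant and 205 to 222 FPKM in control libraries. Of the 8 genes S100a8 and S100a9, known from neutrophils, were higher without overlap. Adipocyte markers summed to 53.7 to 79.3 FPKM in mutant and 42.3 to 53.1 FPKM in control libraries, where only Lpl, lipoprotein lipase, did not overlap and Cfd was listed at 0 throughout. Endothelial markers gave 176 to 200 FPKM in mutant and 160 to 180 FPKM in control libraries, and Emcn, Tek and Tie1 were higher without overlap. Erythroid markers, 5 of 7 present under these symbols, gave 705 to 1194 FPKM in mutant and 578 to 1425 FPKM in control libraries. Schwann cell and melanocyte markers gave 44.5 to 66.8 FPKM in mutant and 51.4 to 57.9 FPKM in control libraries, and of them S100b, a calcium-binding protein gene that cartilage also expresses, fell (log2 difference -0.76, limma adjusted p = 0.00664). No other gene of these 9 lists was called.

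The other genes of the glutathione system were tested by limma over all 14766 genes, of which 0.264% were called. In no list was a gene called. Among the other soluble classes 13 of 16 genes were tested, 0 were called and 3 had an unadjusted limma p under 0.05, against 11.3% of all genes. Of the 13 differences 6 were positive and 7 negative, with a median of -0.031. Gstt1, a theta class enzyme, measured 7.83 ± 0.808 FPKM in mutant and 6.51 ± 0.390 FPKM in control libraries (SD, n = 3 each; limma adjusted p = 0.388). Gstk1, the kappa class enzyme of mitochondria and peroxisomes, measured 7.08 ± 0.189 FPKM in mutant and 8.41 ± 1.05 FPKM in control libraries (limma adjusted p = 0.430).

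The summed FPKM of these other classes was 355 to 357 in mutant and 356 to 373 in control libraries, so the members made up 53.6% to 61.0% of all soluble transferase FPKM in mutant libraries and 63.3% to 66.3% in control libraries. Of the 6 membrane-bound relatives all were tested and 0 were called, where 0.264% of all genes were called. Against 11.3% of all genes, 2 had an unadjusted limma p under 0.05. These were Mgst2, a microsomal transferase (5.70 ± 0.617 FPKM in mutant and 4.13 ± 0.395 FPKM in control libraries, limma adjusted p = 0.247), and Alox5ap, which presents arachidonic acid to 5-lipoxygenase (8.24 ± 1.79 FPKM in mutant and 5.90 ± 0.654 FPKM in control libraries, limma adjusted p = 0.362). Both had higher means in mutant libraries, opposite to the lower mu class genes. A test of the difference between classes was not made.

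**Figure D4:**
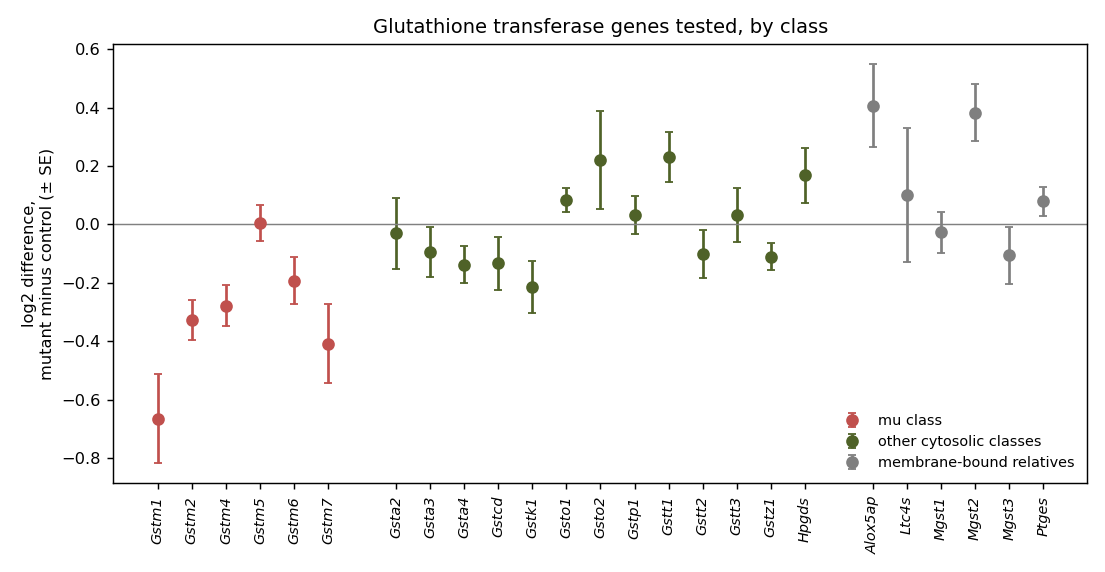
Log2 difference (mutant minus control, log2(FPKM + 1) scale, ± SE from limma, 3 libraries a group) of each glutathione transferase gene tested, by class. The members run from -0.67 for Gstm1 to 0.0050 for Gstm5, and other classes lie on both sides of 0.

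Genes that make and recycle glutathione showed 0 calls among 15 tested, where 0.264% of all genes were called. Among the 15, 1 had an unadjusted limma p under 0.05, against 11.3% of all genes, and the median difference was 0.0016. Ggct, which breaks down gamma-glutamyl peptides, measured 3.19 ± 0.737 FPKM in mutant and 2.09 ± 0.504 FPKM in control libraries (limma adjusted p = 0.409). Anpep, an aminopeptidase that takes apart glutathione conjugates outside the cell, measured 25.5 ± 3.03 FPKM in mutant and 29.3 ± 1.33 FPKM in control libraries (limma adjusted p = 0.456). Glutathione peroxidases and glutaredoxins showed 0 calls among 11 tested, 1 at an unadjusted p under 0.05, and Gpx5 was listed at 0 throughout. Glrx, a glutaredoxin, had a log2 difference of 0.31 ± 0.13 and Glrx5, which serves iron-sulfur cluster assembly, one of -0.12 ± 0.060 (SE; limma adjusted p = 0.427 and 0.511).

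Nrf2 and its target genes gave 0 calls among 23 tested, with 5 at an unadjusted limma p under 0.05, against 11.3% of all genes. Of the 23 differences 8 were positive and 15 negative. Several of these genes also stand in the other lists. Abcc1, which pumps glutathione conjugates out of the cell, measured 15.9 ± 0.186 FPKM in mutant and 14.0 ± 0.286 FPKM in control libraries (limma adjusted p = 0.276). Hmox1, the inducible haem oxygenase, measured 14.7 ± 1.36 FPKM in mutant and 11.8 ± 0.970 FPKM in control libraries (limma adjusted p = 0.299). The other genes with an unadjusted p under 0.05 were all lower in mutant libraries without overlap, and are named after their values were seen. Me1, the cytosolic malic enzyme, had a log2 difference of -0.21 ± 0.066, Tkt, a transketolase, one of -0.18 ± 0.066, and Txnrd1, a thioredoxin reductase, one of -0.16 ± 0.060 (SE; limma adjusted p = 0.325, 0.387 and 0.394). Over the list 2 genes were higher and 5 lower without overlap, against 7.85% and 9.16% of all genes tested. Classic Nrf2 targets outside the naming rule, given after their values were seen, were Nqo1, at 29.4 ± 2.36 FPKM in mutant and 30.1 ± 1.62 FPKM in control libraries, and Gclc, at 23.3 ± 2.47 FPKM in mutant and 23.2 ± 1.52 FPKM in control libraries.

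Drug-metabolising enzymes of the nose gave 0 calls among 19 tested and 0 at an unadjusted limma p under 0.05, against 0.264% and 11.3% of all genes. Of the 19 differences 12 were positive and 7 negative. Ugt2a2, an olfactory glucuronosyltransferase, had a log2 difference of 0.23 ± 0.12 and Ephx1, the microsomal epoxide hydrolase, one of -0.20 ± 0.12 (SE; limma adjusted p = 0.508 and 0.585). Cyp2g1, an olfactory cytochrome P450 named after its values were seen, measured 79.1 ± 2.50 FPKM in mutant and 69.7 ± 13.7 FPKM in control libraries. Among exporters of glutathione conjugates 6 were tested and 0 called, with 1 at an unadjusted limma p under 0.05. The one with the smallest p was Abcc1, given above.

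The genes on either side of the cluster had differences on both sides of 0. Of the 10 tested genes on each side, 0 were called by limma, where 0.264% of all genes were called. An unadjusted limma p under 0.05 was found for 2, against 11.3% of all genes. There were 10 positive and 10 negative differences, with a median of 0.0069. Without overlap 2 were higher and 4 lower in mutant libraries, against 7.85% and 9.16% of all genes. The antisense transcript 4933431E20Rik, which overlaps the start of Gstm5, also passed the filter but was left out of these counts. The nearest tested gene clear of the cluster at lower coordinates was Csf1, the macrophage growth factor, with a log2 difference of 0.083 ± 0.15 (SE). Csf1 lies 258 kb from the Gstm1 start. The nearest at higher coordinates was Ampd2, an AMP deaminase, 68.7 kb away, with -0.10 ± 0.088 (SE). The largest neighbour difference, named after its values were seen, was that of Slc16a4, a monocarboxylate transporter family gene 727 kb away. It measured 1.75 ± 0.319 FPKM in mutant and 2.91 ± 0.200 FPKM in control libraries (limma adjusted p = 0.186). The other neighbour with an unadjusted p under 0.05 was Psrc1, 366 kb away and lower without overlap, also named after its values were seen. Its log2 difference was -0.29 ± 0.083 (SE, limma adjusted p = 0.289).

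**Figure D5:**
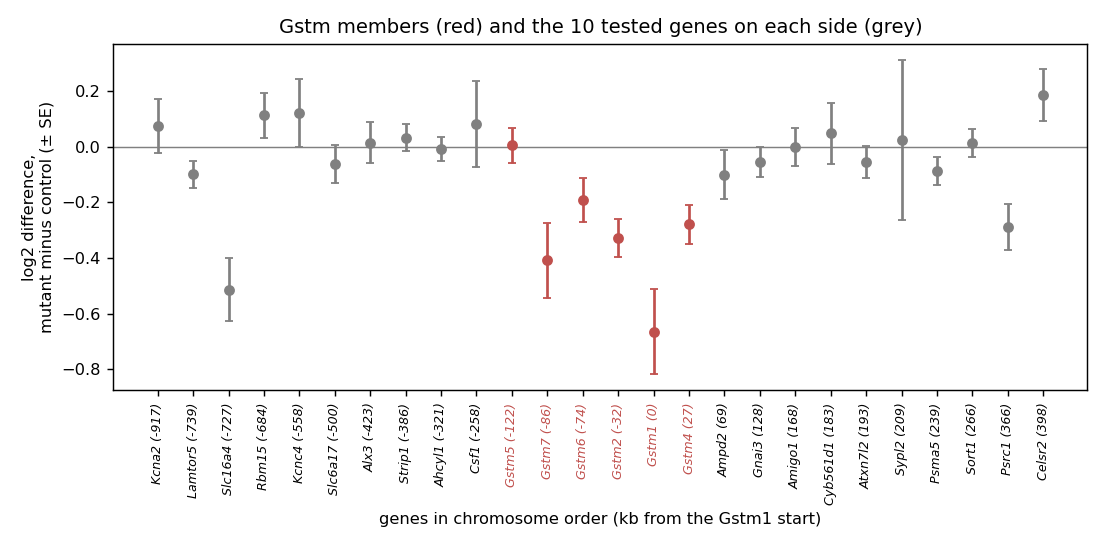
Log2 difference (mutant minus control, log2(FPKM + 1) scale, ± SE from limma, 3 libraries a group) of the 6 members (red) and of the 10 tested genes on each side (grey), in chromosome order, with the distance of each start from that of Gstm1 in kb. From Gstm7 to Gstm4 the members lie under 0, while Csf1 and Ampd2 next to the cluster have 0.083 and -0.10. The antisense transcript 4933431E20Rik, which overlaps Gstm5, is not shown.

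The stretch before the start of each gene was compared for motifs, because 5 members were lower and 1 was not. The bases before the start of Gstm1, Gstm2 and Gstm5 are printed 5′ to 3′ from RefSeq (GRCm38.p6), ending before the more upstream of the RefSeq and GENCODE starts. Capitals mark TGACNNNGC, the core of the antioxidant response element bound by Nrf2, and TGANTCA. The latter is a loose form of the site of AP-1 factors that allows any middle base.
Gstm1, chr3:108017974-108018223, minus strand: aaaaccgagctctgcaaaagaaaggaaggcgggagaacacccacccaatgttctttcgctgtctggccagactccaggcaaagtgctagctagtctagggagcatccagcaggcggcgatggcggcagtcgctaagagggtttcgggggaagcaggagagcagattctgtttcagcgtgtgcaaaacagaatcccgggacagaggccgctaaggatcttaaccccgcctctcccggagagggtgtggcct
Gstm2, chr3:107986454-107986670, minus strand: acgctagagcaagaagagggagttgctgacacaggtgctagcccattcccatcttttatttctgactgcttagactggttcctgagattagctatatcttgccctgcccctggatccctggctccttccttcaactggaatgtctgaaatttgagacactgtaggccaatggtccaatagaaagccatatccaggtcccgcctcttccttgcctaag
Gstm5, chr3:107895604-107895820, plus strand: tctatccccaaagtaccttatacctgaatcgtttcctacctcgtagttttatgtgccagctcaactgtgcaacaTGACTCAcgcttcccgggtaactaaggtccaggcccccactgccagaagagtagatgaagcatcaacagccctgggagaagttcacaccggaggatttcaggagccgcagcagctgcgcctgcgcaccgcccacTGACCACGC
Both strands were searched over the 250 bases before each RefSeq start. Gstm5 held 1 match to TGACNNNGC, read as TGACCACGC from 42 bases before its start, and TGACTCA from 176 bases before it. The windows of Gstm1, Gstm2, Gstm3, Gstm4 and Gstm6 held neither motif, and 1 of the 2 windows of Gstm7 held TGACAAAGC. That match begins 129 bases before the RefSeq start at 107931614, which lies inside the Gstm7 gene as placed by GENCODE. The match therefore lies inside that gene span and not before it, since the searched windows were not trimmed to the GENCODE starts. Over all genes with a RefSeq window of this length, 11.5% held TGACNNNGC and 7.82% held TGANTCA. The match is a match of letters only, and sites farther away were not searched.

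The genes most like the members over the 6 libraries were found by the distance between centred log2 values. Of 11193 genes outside the class with a mean of at least 5 FPKM, those near the members' mean profile included Rnaseh1, which cuts RNA in RNA-DNA hybrids, Baz1a, a chromatin remodelling subunit, Six2, a homeobox factor of facial mesenchyme, and Me2, a mitochondrial malic enzyme. Their root mean square distances were 0.020, 0.041, 0.043 and 0.047 on the log2 scale. Rnaseh1 measured 9.66, 8.499 and 10.2 FPKM in mutant replicates 1 to 3 and 11.5, 12.5 and 12.1 FPKM in control replicates 1 to 3. Like Gstm1, Gstm2 and Gstm7 it was lowest in mutant replicate 2. Single members lay at 0.038 (Gstm2) to 0.22 (Gstm1) from the same profile, so 8288 of those genes were nearer to it than Gstm1.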

How the data were processed

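Messenger RNA of the E17.5 nasomaxillary complex was measured in 6 libraries, grouped by the genotype label, with replicates numbered in accession order as names only. The submitters' processing notes name Cuffdiff 2.2.1, SAMtools 0.1.18, Bowtie2 2.2.8 and TopHat2 2.1.1, and build mm10. Annotation, filters, strand setting and treatment of fragments with several matches have no statement in the sources used here. FPKM values, 1 per gene symbol and library, are what the authors deposited, per the file headers. No depth is stated. Ratios of values under 0.15 FPKM between libraries, at their commonest value within 0.5%, gave relative depths. Outside the reference, control replicate 1, between 36.4% and 41.7% of these low genes lay at the commonest ratio. Fragment numbers are estimates from these, with the smallest non-zero Gstm3 value taken as 1 fragment, and cover counting error only. Across genes, pairs of libraries had a Pearson r of 0.986 to 0.991 on the log2 scale, and 0 pairs held the same values throughout.

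The scale was log2(FPKM + 1), which understates changes of low genes, and genes averaging under 1 FPKM were left out. Mutant minus control differences were fitted with limma 3.58.1 under R 4.3.3 (eBayes with trend, two-sided, 4 residual degrees of freedom), with Benjamini-Hochberg adjustment over all 14766 genes and a threshold of 0.05. The fit was checked on simulated data. It called 39 genes, 9 higher and 30 lower in mutant.

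The members, gene lists and tests were chosen with earlier results of these data known. Named were all members and Gstm3, Pth1r, from each list up to 4 called genes or else the 2 of smallest p, the nearest tested gene on each side, and the 5 genes most alike. Some genes under this rule are not reported here. Positions and coding sequences are from GENCODE M21, aligned with Biopython 1.88 in Python 3.11.15, and promoter sequences from RefSeq GRCm38.p6, which held all 7 mu class genes. Plots used matplotlib 3.10.9.

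The fit was repeated with the pseudocount at 0.1 or 0.5, the filter dropped or raised to 5 FPKM, 3 scalings (upper quartile, quantile and median ratio), no trend, weighted libraries, a covariate for the muscle list or for embryo sex, and each library left out. Libraries positive for Xist alone were added after seeing the data.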

Additional observations from a re-analysis of the deposited data

How the results depend on the processing

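Over the 18 alternatives the lowest and highest differences were -0.81 and -0.31 for Gstm1, -0.38 and -0.19 for Gstm2, -0.54 and -0.19 for Gstm7, -0.32 and -0.20 for Gstm4 and -0.25 and -0.13 for Gstm6. Gstm5 ran from -0.036 to 0.11. Dropping or raising the filter and fitting without trend cannot move these values, and the Xist-positive libraries alone repeat the sex covariate's. For members whose groups do not overlap, leaving out a library cannot turn the sign. The median difference of the members was -0.33 to -0.27 when 1 library was left out, and the log2 ratio of the cluster's sum -0.59 to -0.37. With the muscle list as a covariate they moved to -0.19 and -0.23, and in that fit Pth1r reversed to -0.030, Ephx1 to 0.092 and Csf1 to -0.11. Leaving out 1 library gave -0.095 (without control replicate 2) to 0.237 (without control replicate 3) for Csf1. The cause was not tested.

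The glutathione lists and the neighbours had 0 called genes under every alternative. Over all genes the 39 calls became 18 with no filter, 19 without trend, 71 with library weights, 4 with a muscle covariate and 10 with a sex covariate. Leaving out 1 library gave 15 to 44 calls, with 23 without mutant replicate 1 and 17, 15 and 18 without control replicates 1, 2 and 3. Scaling moved the median of all genes by under 0.1. No paired analysis was possible because the labels carry no replicate numbers, and those used here follow accession order. Low depth limits Gstm6 and Gstm3 most.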
